A study of Homo sapiens with 6 samples.

Results

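The genes examined here encode the chaperonins, barrel-shaped complexes that take an unfolded protein into a closed chamber and release it folded at the cost of ATP. They are the 8 subunit genes of the cytosolic chaperonin TRiC (also called CCT), namely TCP1, CCT2, CCT3, CCT4, CCT5, CCT6A, CCT7 and CCT8, and the genes of the mitochondrial chaperonin, HSPD1 (Hsp60, the barrel) and HSPE1 (Hsp10, its lid). Members were the rows of the deposited table whose gene symbol equalled 1 of these 10 names. All 10 were found among 61806 genes, and all 10 passed the filter on low counts that left 15687 genes for testing.

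RNA-seq had been performed on HCT116, an established human colorectal carcinoma line of epithelial origin, in 2 groups of 3 libraries. One group, with genotype wildtype in the labels, carried the control small interfering RNA si-NC, and the other, labelled STRIP2 knockdown, carried si-STRIP2. STRIP2 encodes a subunit of STRIPAK, a complex that joins a phosphatase to kinases. Both groups were grown in the same medium from the same line. The sequence and number of the small interfering RNAs and the time after their delivery are not given in the sources used here, nor whether replicates were grown separately, so the p-values measure the spread between these libraries, which may be technical. The comparison asked which transcript levels differed between si-STRIP2 and si-NC cells.

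TRiC is a pair of stacked rings, each built from 1 copy of every one of the 8 related subunits, so an assembled complex needs them in equal number. It is best known for folding actin and tubulin, which do not reach their native form without it, and many proteins with WD40 propellers. HSPD1 and HSPE1 work in the mitochondrial matrix on proteins that have just been imported, downstream of the matrix Hsp70, HSPA9. The genes of HSPD1 and HSPE1 stand head to head and are transcribed in opposite directions from a shared control region. Several chaperonin genes are induced by the heat shock transcription factor HSF1, and TRiC is abundant in dividing cells.

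Total counts ranged from 17184963 to 21721218 per library. The targeted gene STRIP2 had FPKM values (fragments per kilobase of exon, scaled to the library's total count) of 3.19, 3.77 and 3.81 in si-NC and 2.71, 2.53 and 2.58 in si-STRIP2, with a log2 fold change of -0.46 (edgeR, standard error 0.083, adjusted p = 1.62e-05). Its groups did not overlap. The epithelial markers EPCAM, KRT8, KRT18, KRT20 and CDH1 summed to 553 to 576 FPKM in si-NC and to 504 to 519 FPKM in si-STRIP2, with KRT20 under 1 FPKM in every library. Of the single markers, CDH1 (log2 fold change -0.60, edgeR adjusted p = 1.57e-14), KRT20 (-1.01, 0.00935), KRT18 (-0.18, 0.000278) and EPCAM (-0.11, 0.0248) were called lower, and KRT8 (-0.045, 0.374) was not called. The 6 markers of leukocytes, fibroblasts, endothelium and hepatocytes summed to 2.22 to 2.61 FPKM and 1.94 to 2.54 FPKM, of which COL1A1 made up at least 1.89 FPKM. The fibroblast marker COL1A2 was at 0 counts in all 6 libraries, and the hepatocyte marker ALB had 27 and 23 counts in si-STRIP2 replicates 1 and 2 and at most 7 in the other libraries. The genes encoded by the mitochondrial genome took 4.88% to 8.88% of counts in si-NC and 5.73% to 6.30% in si-STRIP2. The part of these marker levels in the results was not tested. In bulk RNA, fewer cells of a kind and less RNA per cell cannot be told apart.

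All 10 chaperonin genes were higher in si-STRIP2 cells. Over all tested genes, 27.8% were called higher by edgeR at an adjusted p under 0.05, and 27.0% were called lower. The log2 fold changes of the 10 members ran from 0.13 (CCT6A) to 0.77 (HSPD1), with a median of 0.51 beside a median of 0.014 over all tested genes. For each of the 10 the si-STRIP2 FPKM values all exceeded the si-NC values, a state in which 30.0% of all tested genes were found with si-STRIP2 as the higher group. When the test asked for a change beyond 1.2-fold (edgeR's glmTreat), 7 of the 10 passed, compared with 11.3% of all tested genes that passed upwards. The 3 that did not were TCP1 (adjusted p = 0.156), CCT2 (0.653) and CCT6A (1).

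**Figure D1:**
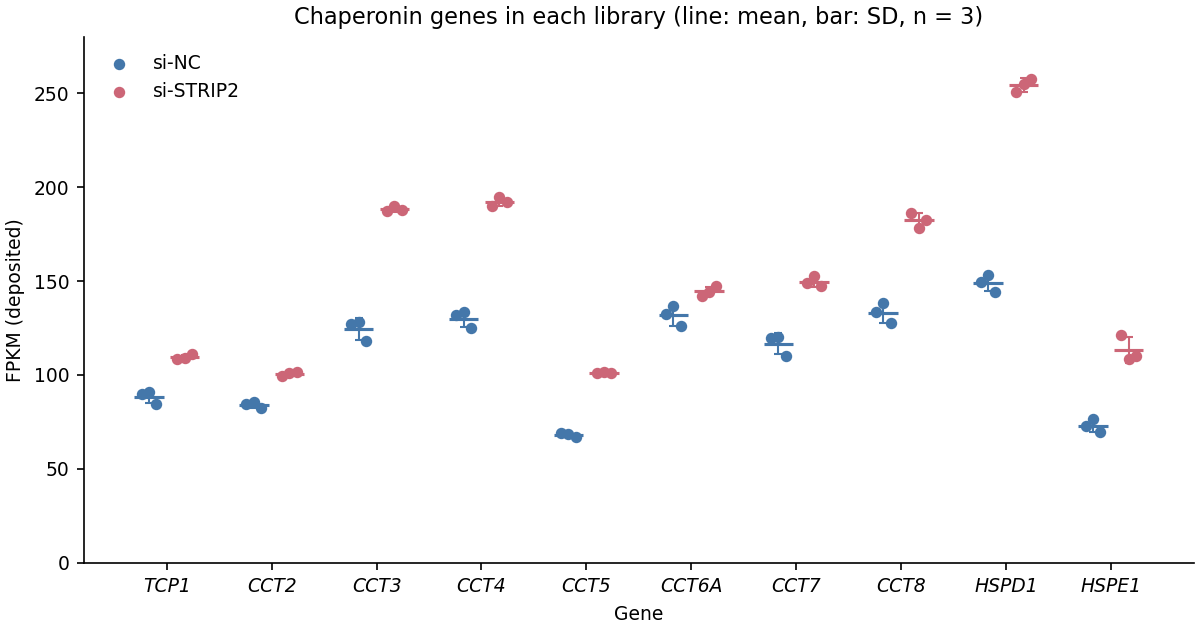
Deposited FPKM (vertical axis) of the 10 chaperonin genes (horizontal axis) in the 3 si-NC libraries (blue points) and the 3 si-STRIP2 libraries (red points), where lines are means and bars are SD. Every red point lies above every blue point of the same gene, and the gap is widest for HSPD1 (148.98 to 254.36 FPKM) and narrowest for CCT6A (131.7 to 144.5 FPKM).

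The largest change among the members was that of HSPD1 (ENSG00000144381, GRCh38.p13, chromosome 2, 197486584 to 197516737, minus strand), the barrel of the mitochondrial chaperonin. Its FPKM values were 149.49, 153.11 and 144.35 in si-NC and 250.58, 254.83 and 257.67 in si-STRIP2. The lowest si-STRIP2 library was far above the highest control library, and the values within each group lay close together. HSPD1 was thus 1.70-fold higher, a log2 difference of 0.77 (edgeR, standard error 0.046, adjusted p = 6.14e-16). Of all counts, HSPD1 took 0.114% ± 0.00336 in control libraries and 0.194% ± 0.00272 in knockdown libraries (SD, n = 3).

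HSPE1 (ENSG00000115541, chromosome 2, 197500140 to 197503449, plus strand), which caps the HSPD1 barrel, had FPKM values of 72.73, 76.78 and 69.55 in si-NC and of 121.02, 108.69 and 110.07 in si-STRIP2. The groups were well apart, and si-STRIP2 replicate 1 was the highest library. HSPE1 was 1.55-fold higher, a log2 difference of 0.63 (edgeR, standard error 0.044, adjusted p = 3.43e-14). The ratio of HSPD1 to HSPE1 in FPKM came to 2.06, 1.99 and 2.08 under si-NC and to 2.07, 2.34 and 2.34 under si-STRIP2. On the log2 scale this ratio differed by 0.14 between groups whose values overlapped (p = 0.2 by a 2-sided exact permutation, which cannot go under 0.1 with 3 libraries a group). The level of the ratio itself depends on the exonic length used: the deposited length of HSPD1 is 7629 bases and its exons in GENCODE 29 cover 4245, and with the latter the mean ratio in si-NC was 3.98 in place of 2.04. Fold changes within a gene do not depend on its length.

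Within TRiC, CCT3, CCT5 and CCT4 rose most. CCT3 (ENSG00000163468, chromosome 1, 156308968 to 156367873, minus strand) had 127.14, 128.33 and 117.95 FPKM in si-NC and 187.3, 190.04 and 187.7 in si-STRIP2. Its si-STRIP2 libraries were nearly equal to one another. The lowest library was si-NC replicate 3, as it was for every member. The log2 fold change of CCT3 was 0.59 (edgeR, standard error 0.043, adjusted p = 7.82e-14), or 1.51-fold.

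CCT5 (ENSG00000150753, chromosome 5, 10249929 to 10266389, plus strand) had the lowest FPKM of the 8 subunits in si-NC, at 69.14, 68.56 and 67.21, and 100.88, 101.32 and 100.84 in si-STRIP2. Both groups were tight and clearly separate. Its log2 fold change was 0.56 (edgeR, standard error 0.040, adjusted p = 7.32e-14). CCT4 (ENSG00000115484, chromosome 2, 61868085 to 61888671, minus strand) changed by the same amount from a level about as high as any subunit, with 131.89, 133.33 and 124.85 FPKM in si-NC and 189.66, 194.66 and 192.18 in si-STRIP2. The log2 fold change of CCT4 was 0.56 (edgeR, standard error 0.041, adjusted p = 1.22e-13), with groups that did not overlap.

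CCT8 and CCT7 followed. CCT8 (ENSG00000156261, chromosome 21, 29055805 to 29073797, minus strand) had 133.51, 138.38 and 127.67 FPKM in si-NC and 186.37, 178.41 and 182.25 in si-STRIP2. Every si-STRIP2 library was higher than every control library, and the log2 fold change was 0.45 (edgeR, standard error 0.042, adjusted p = 3.50e-11). CCT7 (ENSG00000135624, chromosome 2, 73233420 to 73253021, plus strand) had 119.48, 120.32 and 110.15 FPKM in si-NC and 149.07, 152.47 and 147.11 in si-STRIP2. Its groups were separate as well, with si-NC replicate 3 the lowest as for every member, and its log2 fold change was 0.36 (edgeR, standard error 0.042, adjusted p = 9.47e-09).

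TCP1, CCT2 and CCT6A rose least. TCP1 (ENSG00000120438, chromosome 6, 159778498 to 159789703, minus strand), the first subunit described and the source of the complex's name, had 89.89, 90.79 and 84.34 FPKM in si-NC and 108.69, 109.28 and 110.89 in si-STRIP2, with a log2 fold change of 0.31 (edgeR, standard error 0.042, adjusted p = 1.13e-07). CCT2 (ENSG00000166226, chromosome 12, 69585426 to 69601570, plus strand) had 84.57, 85.83 and 82.36 FPKM in si-NC and 99.57, 101.04 and 101.38 in si-STRIP2, with a log2 fold change of 0.25 (edgeR, standard error 0.040, adjusted p = 1.70e-06). For both genes the groups were separate, by a gap larger than the range within either group. CCT6A (ENSG00000146731, chromosome 7, 56051685 to 56063989, plus strand) had 132.64, 136.63 and 125.79 FPKM in si-NC and 142.02, 144.2 and 147.15 in si-STRIP2. Here the gap between the groups was smaller than the range of the control libraries. The log2 fold change of CCT6A was 0.13 (edgeR, standard error 0.042, adjusted p = 0.00905), or 1.09-fold, and it did not pass without si-STRIP2 replicate 3 (log2 fold change 0.11, edgeR adjusted p = 0.0657).

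**Figure D2:**
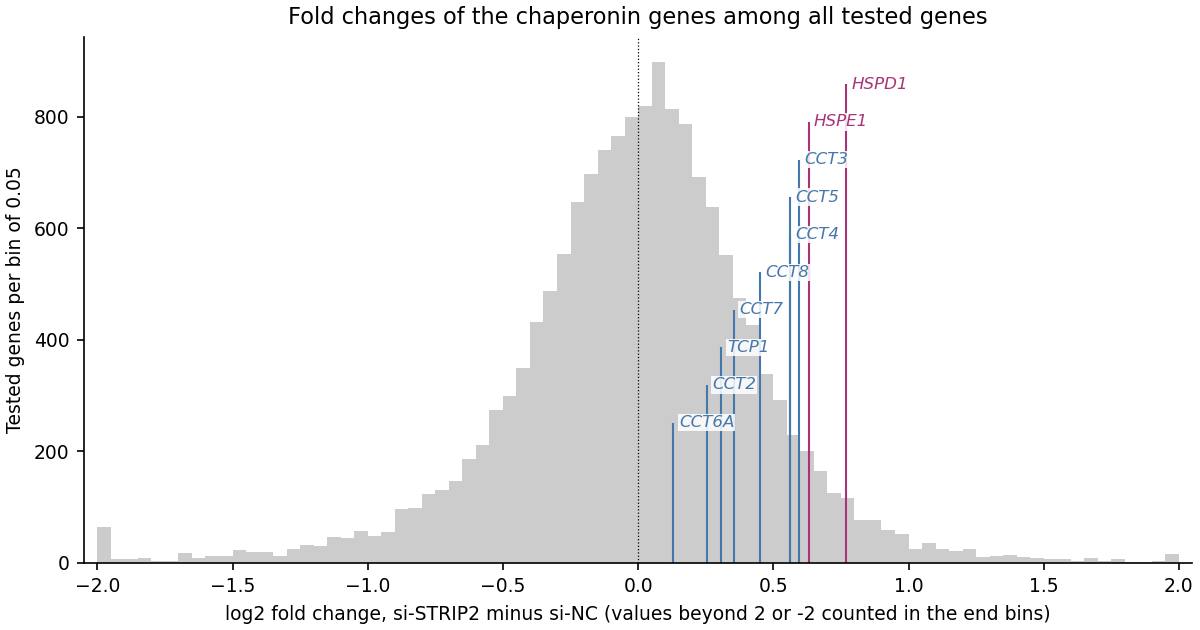
Histogram of the log2 fold change of si-STRIP2 minus si-NC (horizontal axis) over the 15687 tested genes (grey, genes per bin on the vertical axis), with a line for each TRiC subunit (blue) and for HSPD1 and HSPE1 (purple), whose heights serve only to separate the names. All 10 lines lie to the right of 0, from 0.13 for CCT6A to 0.77 for HSPD1. The bin of CCT6A holds 815 genes, near the peak bin of 899, and that of HSPD1, on the right slope, holds 117.

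The fold changes of the members were moderate within this experiment. HSPD1 ranked 582 and HSPE1 988 among the 15687 tested genes by log2 fold change, and CCT3 led the TRiC subunits at rank 1139. The lowest ranks among the members were those of TCP1 (3336), CCT2 (4025) and CCT6A (5874). The members stood out more by their abundance. By mean FPKM over the 6 libraries they ranked between 126 (HSPD1) and 378 (CCT5), beside a median of 3.68 FPKM over all tested genes. Together the 8 TRiC genes took 0.337% ± 0.0121 of all counts in control libraries and 0.448% ± 0.00160 in knockdown libraries (SD, n = 3; exact permutation test, 2-sided, p = 0.1, the smallest possible). The geometric mean of the 8 subunits was 108.1, 109.6 and 102.5 FPKM in si-NC and 140.6, 141.7 and 141.6 in si-STRIP2, so that the si-STRIP2 libraries were higher and nearly level with one another.

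The order of the subunits by FPKM changed between the groups. In si-NC, CCT8 (133.2 ± 5.36), CCT6A (131.7 ± 5.48), CCT4 (130.02 ± 4.54) and CCT3 (124.5 ± 5.68) led. Neighbours in this order differed by no more than the larger of their SDs between libraries (n = 3), but the order of these 4 was the same within each si-NC library. CCT7 (116.65 ± 5.64) came next, and TCP1 (88.3 ± 3.49), CCT2 (84.3 ± 1.76) and CCT5 (68.3 ± 0.99) followed. In si-STRIP2 the leading subunits were CCT4 (192.2 ± 2.50), CCT3 (188.3 ± 1.48) and CCT8 (182.3 ± 3.98), in this order within each library by the deposited FPKM. CCT7 (149.55 ± 2.71) and CCT6A (144.5 ± 2.57) lay between these and TCP1 (109.6 ± 1.14), CCT5 (101.01 ± 0.266) and CCT2 (100.66 ± 0.962), where the order of CCT7 and CCT6A, and that of CCT5 and CCT2, was reversed in replicate 3. By its mean CCT6A was next to the top in si-NC, while in si-STRIP2 CCT4, CCT3, CCT8 and CCT7 were all above it. With the exonic lengths of GENCODE 29 the means of CCT5 and CCT2 in si-STRIP2 were 97.5 and 98.5. Those of CCT4, CCT8 and CCT3 were then 183.4, 182.3 and 181.1, nearly level. The order of CCT5 and CCT2 and that of CCT3 and CCT8 in si-STRIP2 therefore depend on the annotation.

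The unequal changes were also examined within each library, as the log2 ratio of a subunit to the geometric mean of all 8, which does not depend on how libraries are scaled. CCT6A lay at 0.30, 0.32 and 0.30 above this mean in si-NC and at 0.014, 0.025 and 0.056 in si-STRIP2. The groups were far apart, with a difference of -0.27 on the log2 scale. CCT2 (-0.15) and TCP1 (-0.093) also lost ground to the other subunits, and CCT3 (0.19), CCT5 (0.16) and CCT4 (0.16) gained. In each of these 6 subunits the groups did not overlap, which with 3 against 3 gives the smallest possible p of 0.1 (exact permutation test, 2-sided; 0.133 when adjusted over the 8 subunits), so none can pass 0.05. CCT7 (-0.046) and CCT8 (0.048) had overlapping groups (exact permutation p = 0.2 each, 0.2 adjusted). The coefficient of variation of FPKM over the 8 subunits went from 23.2% ± 0.742 in control to 26.8% ± 0.318 in knockdown libraries (SD, n = 3; exact permutation p = 0.1), while the ratio of the highest to the lowest subunit was 1.95 ± 0.0616 and 1.91 ± 0.0123 (exact permutation p = 0.6). The direction of this ratio depends on the exonic lengths: with those of GENCODE 29 it was 2.019 and 1.899, with groups that did not overlap, and with CPM, which is not scaled to length, it was 1.44 and 1.71, higher in every si-STRIP2 library (exact permutation p = 0.1). The coefficient of variation was higher in si-STRIP2 on all 3 scales, by 3.55 percentage points with the deposited FPKM, 2.97 with GENCODE 29 lengths and 2.09 with CPM.

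**Figure D3:**
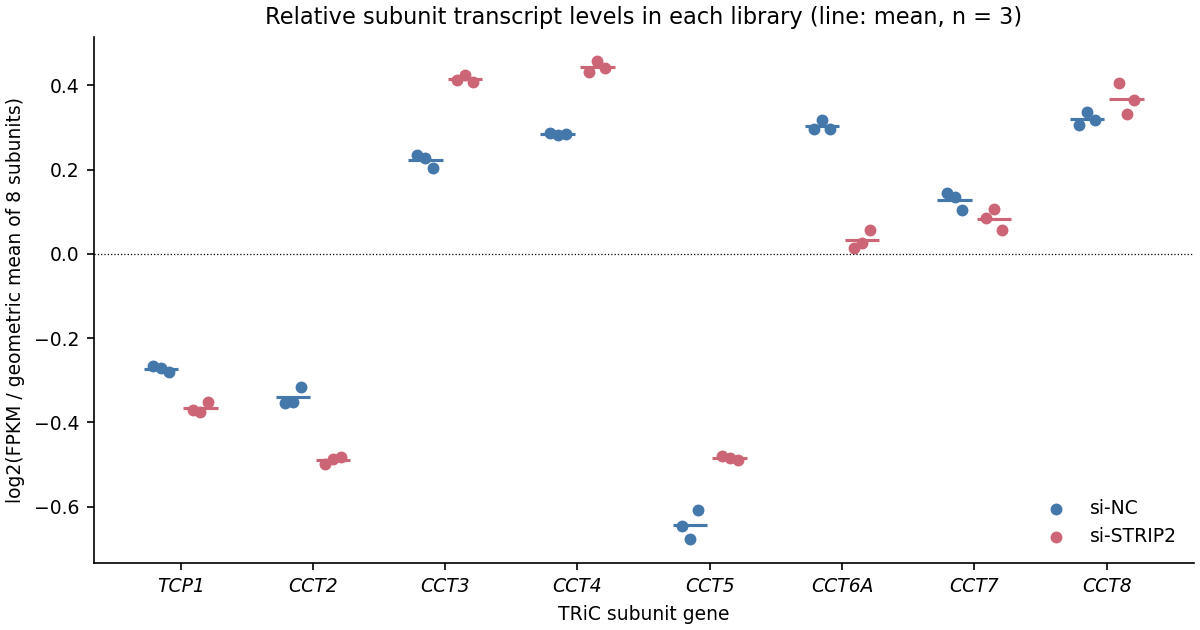
Level of each TRiC subunit gene (horizontal axis) relative to the geometric mean of all 8 in the same library (vertical axis, log2 ratio of FPKM) in si-NC (blue) and si-STRIP2 (red), with 1 point per library and a line at each mean. CCT6A moves from 0.30 to 0.032 and CCT3 from 0.22 to 0.41, and the points of CCT7 and CCT8 overlap.

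Subunits of TRiC are known to differ in how they use ATP: TCP1, CCT2, CCT4 and CCT5 form the side of the ring that binds it tightly, and CCT3, CCT6A, CCT7 and CCT8 the side that binds it weakly. The changes did not divide along this line. The tightly binding side held CCT5 and CCT4 (log2 fold change 0.56 each) as well as TCP1 (0.31) and CCT2 (0.25), and the other side ran from CCT3 (0.59) and CCT8 (0.45) to CCT7 (0.36) and CCT6A (0.13).

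The control regions of the members were searched for known motifs because the genes were higher together. RefSeq start windows (GRCh38.p14, 250 bases before to 50 after an annotated start) were at hand for 9 members, 12 windows in all, and CCT6A had none. The motif of the heat shock factors was searched as a pair of facing units, GAANNTTC or TTCNNGAA, which overlap in longer runs and read the same on both strands. It occurred in windows of 4 members, TCP1, CCT2, CCT4 and HSPD1 (4 of the 12 windows), and in 13.5% of the 35116 windows of all genes. The 2 windows of CCT4 overlap for most of their length, so the 12 are not all separate sequences. The matches are shown with 28 bases each, in the direction of the named gene, with the motif in capitals.
TCP1: cgtttgaggcGAAGGTTCaacctcttcc
CCT2: ccggagcgaaGAAATTTCtagtgtggga
CCT4: cgacgccggcgccgctTTCTGGAAggtt
HSPD1: gcattTTCTGGAAAGTTCTGGAAccgag
The TCP1 sequence lies at chr6:159789816-159789843 (minus strand), 231 bases before the start and inside an exon of the neighbouring gene MRPL18. The CCT2 sequence lies at chr12:69585790-69585817 (plus strand), 89 bases before the second RefSeq start. It is downstream of the first RefSeq start and inside an exon of CCT2 in GENCODE 29. The CCT4 sequence lies at chr2:61888607-61888634 (minus strand), 38 bases after a start and inside an exon of CCT4. Only in HSPD1, among the 12 windows, did the units run on without a break: its match at chr2:197500063-197500090 (minus strand) spans 18 bases of alternating units, and runs of at least 3 units occurred in 0.490% of all windows. It lies 294 bases before the RefSeq start of HSPE1 and 189 bases into HSPD1 from its outer start, in sequence that GENCODE 29 annotates as exonic for transcripts of both genes. A match describes letters in a window and not a bound factor.

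The outer RefSeq starts of HSPD1 and HSPE1 are 104 bases apart, so their windows overlap. Both windows hold the same E-box (CACGTG, the core motif of MYC and related factors), which is found in 7.26% of all windows and in no window of the TRiC genes. It is shown from both sides at chr2:197500346-197500373.
HSPE1: ggtgattttttCACGTGtcgccagggcc
HSPD1: ggccctggcgaCACGTGaaaaaatcacc
The CCAAT box (CCAAT, either strand) was found in windows of TCP1, CCT2, CCT3 and CCT8 (4 of the 12 member windows) and in 34.6% of all windows. The GC box (GGGCGG, either strand) was found for 7 members (9 of the 12 windows) and in 45% of all windows. E2F words (TTTGGCGC, TTTCCCGC or TTTCGCGC, either strand), typical of replication genes, occurred in TCP1 alone (1 of the 12), against 2.74% of all windows. The ETS word (CCGGAAG, either strand) occurred in CCT2 alone (1 of the 12), against 10.3%.

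Genes beside the members were read out because shared or overlapping transcripts can be counted for either gene. At the mitochondrial chaperonin locus, MOB4 (chromosome 2, 197515571 to 197553699, plus strand), which encodes a STRIPAK subunit, starts within the annotated span of HSPD1. MOB4 fell from 23.3 ± 1.10 FPKM under si-NC to 19.7 ± 0.920 under si-STRIP2 (SD, n = 3), and the fitted log2 fold change of MOB4 came to -0.25 (edgeR, standard error 0.045, adjusted p = 2.22e-05). HSPD1 and HSPE1 were higher in the same libraries. The readthrough gene HSPE1-MOB4, whose exons share 9.71% of the exonic bases of HSPE1 in GENCODE 29, held 3, 1 and 0 counts in si-NC and 1, 2 and 6 in si-STRIP2, which is at the limit of detection. In the same annotation, exons of HSPD1 and HSPE1 overlap each other on opposite strands over 6.62% of HSPD1 and 14.2% of HSPE1. Among the TRiC genes, 30.1% of the exonic bases of CCT5, 12.6% of CCT4 and 8.05% of TCP1 lie opposite exons of other genes, and a further 3.08% of TCP1 is shared with small nucleolar RNA genes on its own strand. The library kit keeps strand, but the strand setting used in counting is not given in the sources used here.

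**Figure D4:**
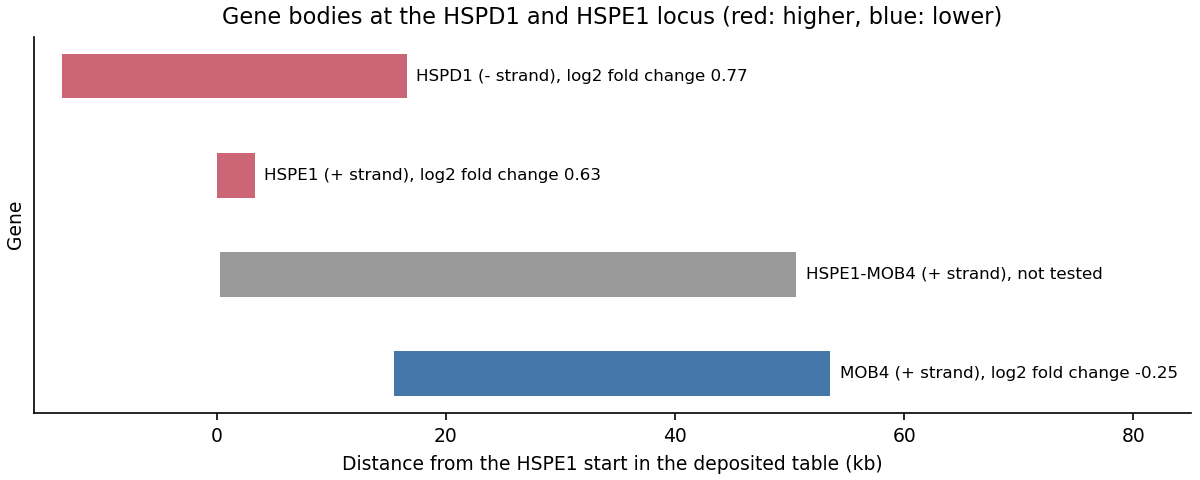
Gene bodies at the HSPD1 and HSPE1 locus from the deposited table, by distance from the HSPE1 start (horizontal axis, kb), with 1 bar per gene. HSPD1 (log2 fold change 0.77) and HSPE1 (0.63) are drawn in red as higher, MOB4 (-0.25) in blue as lower, and the readthrough HSPE1-MOB4, not tested at its low count, in grey.

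CCT6A, the subunit that changed least, stands head to head with PSPH, which encodes the last enzyme of serine synthesis and begins 81 bases away on the opposite strand. PSPH had 1742, 1387 and 1261 counts in si-NC and 1029, 893 and 875 in si-STRIP2, all lower than any control library. Its log2 fold change was -0.58 (edgeR, standard error 0.049, adjusted p = 3.91e-12). TCP1 stands 109 bases from MRPL18, a mitochondrial ribosomal protein gene on the opposite strand, which was higher with a log2 fold change of 0.30 (edgeR, standard error 0.050, adjusted p = 5.88e-06). ACAT2, which overlaps the other end of TCP1, had a log2 fold change of 0.019 (edgeR adjusted p = 0.816). ATPSCKMT, 32 bases from CCT5, had 0.10 (0.293), and COMMD1, 53 bases from CCT4, had -0.30 (0.0532), as log2 fold change and edgeR adjusted p. SUMF2, 13 bases beyond the end of CCT6A, had 0.091 (0.0598), and PRADC1, 181 bases from CCT7, had 0.21 (0.266). Of these 7 neighbours, PSPH and MRPL18 passed the test, in opposite directions, beside 27.8% of all tested genes called higher and 27.0% lower. MOB4, described above, was also called lower. TSACC, which lies on the opposite strand within CCT3, had 0.153% as many counts as CCT3 and a log2 fold change of 0.15 (edgeR adjusted p = 0.705). The antisense gene ENSG00000286360 within CCT4, with 0.181% as many counts as CCT4, was called higher (log2 fold change 1.10, edgeR adjusted p = 0.00921) on 8 to 11 counts in si-NC and 12 to 28 in si-STRIP2. ENSG00000286018 within CCT8 had a log2 fold change of 0.39 (edgeR adjusted p = 0.307). The other annotated genes within 1000 bases of a member, small nucleolar RNA and microRNA genes among them, were too low to test.

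Chaperonin genes have many processed pseudogenes, to which fragments may align. The 18 annotated pseudogenes of HSPD1 held 0.798% as many counts as HSPD1, and the 26 of HSPE1 held 0.814%. The most abundant of each, named after their values were seen, were called higher like their parent genes: HSPD1P1 by 0.62 (edgeR adjusted p = 3.53e-06) and HSPE1P2 by 0.98 (edgeR adjusted p = 0.0113) on the log2 scale. The value of HSPE1P2 rests on few counts, 0.609% as many as HSPE1, which itself had 2179 to 4143 per library. For CCT6A, the 4 pseudogenes held 2.35%, of which CCT6P1 accounted for 1.82% and had a log2 fold change of 0.32 (edgeR adjusted p = 0.00995). The pseudogenes of CCT8 held 0.307%, and those of TCP1, CCT3, CCT4, CCT5 and CCT7 at most 0.0191%, while the table listed none for CCT2.

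The genes around the chaperonins were described by lists, set against 27.8% of all tested genes higher and 27.0% lower. For the test against 1.2-fold the shares are 11.3% of all tested genes higher and 1943 of 15687 lower. The first holds the paralog CCT6B, known mainly from testis, and MKKS, BBS10 and BBS12, chaperonin-like proteins that assemble the BBSome of the cilium. None of the 4 was higher and 3 were lower, with a median log2 fold change of -0.30. Without si-STRIP2 replicate 3, and in the test against 1.2-fold, 2 of the 4 were lower, the latter without MKKS (adjusted p = 0.721). CCT6B was low, at 1.17, 1.27 and 1.25 FPKM in si-NC and 0.71, 1.15 and 0.57 in si-STRIP2, with a log2 fold change of -0.61 (edgeR, standard error 0.176, adjusted p = 0.00396), opposite in sign to its paralog CCT6A. Its si-STRIP2 replicate 2 lay just under the controls. BBS10 fell from 35.8 ± 0.739 to 28.1 ± 0.390 FPKM (log2 fold change -0.35, edgeR adjusted p = 6.35e-09) and MKKS from 10.01 ± 0.356 to 8.48 ± 0.0854 (log2 fold change -0.24, edgeR adjusted p = 3.91e-05). Exons of MKKS share 12.7% of their bases with other genes on the same strand. BBS12 had a log2 fold change of -0.21 (edgeR adjusted p = 0.158).

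Prefoldin is the 6-part complex that carries nascent actin and tubulin to TRiC. Of its genes, 3 were lower, PFDN6 alone was higher, and the median log2 fold change was -0.065. PFDN2, by FPKM the most abundant subunit, fell from 175.03, 192.56 and 177.66 FPKM in si-NC to 137.37, 134.66 and 141.65 in si-STRIP2, so that no library of the groups overlapped. Its log2 fold change was -0.40 (edgeR, standard error 0.044, adjusted p = 1.86e-09). PFDN1 (-0.20, edgeR adjusted p = 0.000701) and PFDN4 (-0.18, edgeR adjusted p = 0.00296) fell less and did not pass against 1.2-fold (edgeR adjusted p = 1 each), which leaves PFDN2 as the 1 lower subunit in that test. PFDN6 rose by 0.39 (edgeR adjusted p = 8.59e-08). VBP1, the gene of prefoldin 3, had a log2 fold change of 0.050 (edgeR adjusted p = 0.318), and PFDN5, listed at only 1.54 to 2.17 FPKM, had 0.14 (0.337). Exons of PFDN6 share 32.2% of their bases with genes on the opposite strand in GENCODE 29. PFDN2 thus moved opposite to all 8 subunits of the chaperonin it serves.

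Phosducin-like proteins bind TRiC and assist or modulate its folding cycle. PDCL (log2 fold change 0.29, edgeR adjusted p = 9.92e-05) and PDCL3 (0.23, edgeR adjusted p = 0.00288) were higher, TXNDC9 had -0.070 (edgeR adjusted p = 0.357), and PDCL2 was too low to test, at up to 0.19 FPKM. Neither PDCL nor PDCL3 passed the test against 1.2-fold. Among the cofactors that finish tubulin after its release from TRiC, TBCD was called, higher by 0.43 (edgeR adjusted p = 1.94e-10). TBCA (0.031), TBCB (0.037), TBCC (0.15), TBCE (0.37, at 0.13 to 0.20 FPKM) and ARL2 (0.14), the small GTPase that works with them, did not pass, with edgeR adjusted p-values from 0.0977 to 0.589.

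Of 18 tested genes whose proteins are folded by TRiC, 11 were higher and 2 lower, with a median log2 fold change of 0.20. Against 1.2-fold, 7 of the 18 were higher and none lower, beside 11.3% of all tested genes higher. The 4 with the smallest adjusted p were TUBB, ACTB, CCNE1 and ACTG1. TUBB, the main beta-tubulin gene here, had 154.78, 155.71 and 146.33 FPKM in si-NC and 272.06, 276.27 and 275.77 in si-STRIP2 (edgeR log2 fold change 0.85, standard error 0.043, adjusted p = 1.40e-17). The cytoplasmic actins rose too, ACTB from 200.7 ± 3.67 to 350.8 ± 11.8 FPKM (log2 fold change 0.80, edgeR adjusted p = 9.91e-17) and ACTG1 from 453.7 ± 4.65 to 707.4 ± 7.78 (0.64, edgeR adjusted p = 1.39e-13). CCNE1, the gene of cyclin E1, rose by 0.89 (edgeR adjusted p = 1.34e-14). Actin and tubulin genes have near-identical copies, and how counting divided fragments among them is uncertain, and 16.0% of the exonic bases of TUBB lie opposite another gene. The 2 lower genes, named after their values were seen, were GNB1 (-0.14, edgeR adjusted p = 0.00335) and VHL (-0.14, edgeR adjusted p = 0.00473), neither of which passed against 1.2-fold.

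**Figure D5:**
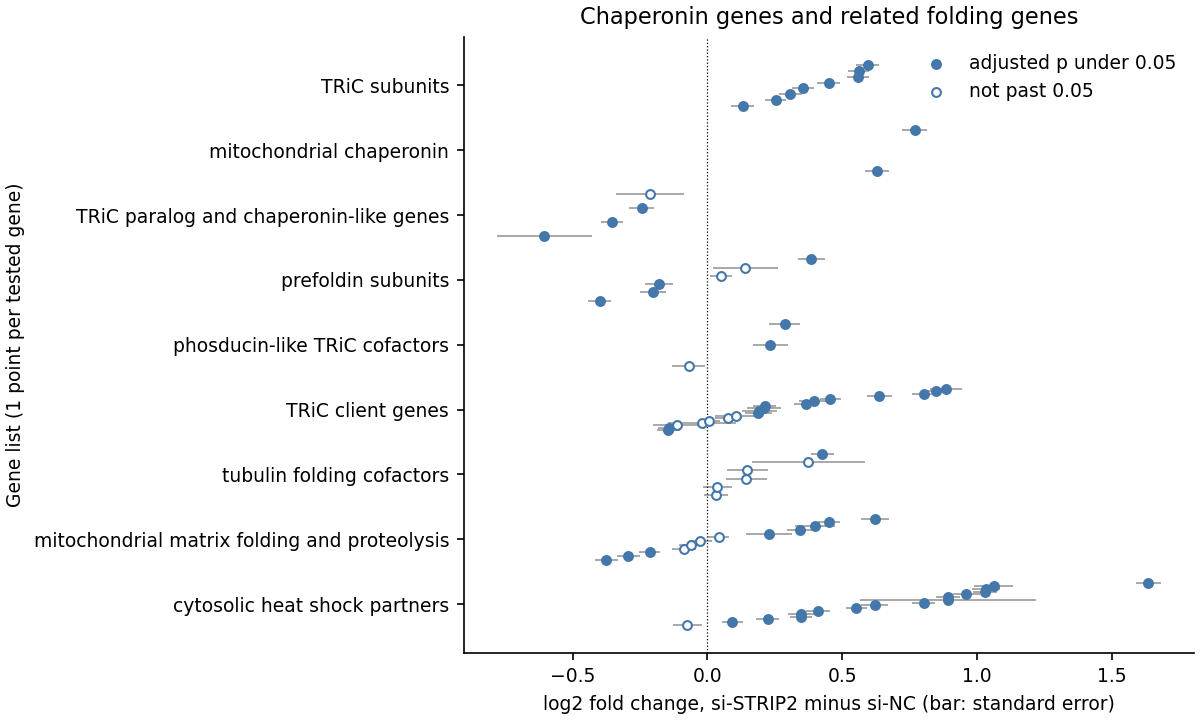
The log2 fold change of si-STRIP2 minus si-NC (horizontal axis, bars are standard errors) of each tested gene in 9 lists (vertical axis), where filled points have an edgeR adjusted p under 0.05 and open points do not. The TRiC and mitochondrial chaperonin points are all filled and right of 0, those of the chaperonin-like genes all lie left of 0 (3 of 4 filled), and prefoldin and the mitochondrial matrix genes lie on both sides.

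Around HSPD1 and HSPE1, the genes of folding and proteolysis in the mitochondrial matrix and inner membrane did not move one way. Of 12 tested, 5 were higher, 3 lower and 4 not called, with a median log2 fold change of 0.0074. TRAP1, the mitochondrial Hsp90, rose from 31.9 ± 0.336 to 43.6 ± 1.46 FPKM (log2 fold change 0.45, edgeR adjusted p = 1.86e-11), though 29.3% of its exonic bases are shared with DNASE1 on the other strand. SPG7, a subunit of the inner membrane AAA protease, rose by 0.62 from 1.47 ± 0.123 FPKM (edgeR adjusted p = 5.26e-12), and GRPEL1, a nucleotide exchange factor of HSPA9, rose by 0.34 (edgeR adjusted p = 1.07e-07). YME1L1, another inner membrane protease, fell from 65.4 ± 1.53 to 50.5 ± 1.59 FPKM (log2 fold change -0.37, edgeR adjusted p = 1.73e-09).

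HSPA9, the matrix Hsp70 that hands proteins to HSPD1, was chosen after its values were seen. It had 112.98, 118.63 and 110.74 FPKM in si-NC and 91.81, 93.59 and 94.54 in si-STRIP2, with every si-STRIP2 library lower. Its log2 fold change was -0.29 (edgeR, standard error 0.044, adjusted p = 7.10e-07), opposite in sign to HSPD1 and HSPE1. GRPEL2, the second exchange factor, likewise named after the fact, fell by 0.21 (edgeR adjusted p = 2.44e-05). In the test against 1.2-fold, HSPA9 (edgeR adjusted p = 0.267), GRPEL2 (1) and GRPEL1 (0.0550) did not pass. By that test 3 genes of this list were higher and 1 lower, beside 11.3% of all tested genes higher and 1943 of 15687 lower.

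Of the 16 cytosolic heat shock genes listed as partners of the chaperonins, 15 were higher and none lower, with a median log2 fold change of 0.71. HSF1 itself was the exception, at 11.19, 10.74 and 11.51 FPKM in si-NC and 11.35, 10.81 and 9.64 in si-STRIP2 (log2 fold change -0.074, edgeR adjusted p = 0.239). Against 1.2-fold, 11 of the 16 were higher, beside 11.3% of all tested genes. Without each library in turn 13 to 14 of the 16 were higher, beside 3866 to 4244 of all tested genes. HSPA4 (log2 fold change 0.093, edgeR adjusted p = 0.0468) lay close to the threshold. HSPA1A was called on 9 to 12 counts in si-NC and 17 to 21 in si-STRIP2. The 4 with the smallest adjusted p were the Hsp70 HSPA8 (log2 fold change 1.64, edgeR adjusted p = 3.40e-24), its J-domain partner DNAJA1 (1.03, 1.56e-19), the Hsp90 gene HSP90AA1 (1.03, 4.60e-18) and the Hsp90 co-chaperone CHORDC1 (0.89, 5.92e-18). These 4 changed more than any chaperonin gene. HSPA1A and HSPA1B are near-identical copies, so their single values are uncertain.

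The genes whose levels over the 6 libraries were most like those of TRiC were found by the Pearson correlation of log2 CPM (scaled counts) with the mean standardised level of the 8 subunits. Outside the members these were HMGB1 (r = 0.9998, log2 fold change 0.35), TPD52L2 (0.9996 and 0.33), CACYBP (0.999 and 0.68), HMGN2 (0.999 and 0.38) and PRDX1 (0.999 and 0.58). HMGB1 and HMGN2 encode abundant chromatin proteins, CACYBP a protein that binds S100 proteins and the ubiquitin ligase SIAH1, and PRDX1 a peroxidase. Over 6 libraries in 2 groups such a correlation mainly reflects the step between the groups, and 249 of 15687 genes had r above 0.99. Among the 8 subunits, all of which are part of the mean, r ran from 0.999 for TCP1 to 0.938 for CCT6A. For HSPD1 and HSPE1, which are not part of it, r was 0.993 and 0.976.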

How the data were processed

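The members, lists and tests were chosen with earlier results of these data known. The deposited table gives raw counts and FPKM per gene and library. Per the submitters' processing notes, cutadapt 1.9.1, HISAT2 2.2.1, HTSeq 0.6.1 and GRCh38.p13 were used. The annotation release, strand setting and any handling of ambiguous fragments are not given in the sources used here. The deposited FPKM values equal counts scaled by the deposited exonic length and the column total, to within 0.005.

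Counts were tested in R 4.3.3 with edgeR 4.0.16: filterByExpr (minimum count 10), TMM, quasi-likelihood F test with group as the only term on all 6 libraries, 2-sided, Benjamini-Hochberg over 15687 genes. Standard errors are the absolute log2 fold change over the square root of F. Single values per library were compared by exact permutation.

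Alternatives were DESeq2 1.42.0, other scalings and filters, limma 3.58.1 on log2(FPKM + 1) and log2(FPKM + 0.1), a 1.2-fold limit, a replicate block and each library left out. Libraries within a group differed by more than sampling noise, and more so in si-NC. Chi-square per degree of freedom was 4.91 to 16.6 between si-NC libraries and 2.14 to 2.26 between si-STRIP2 libraries. Named were all members, their tested neighbours within 1000 bases, pseudogenes with over 1% of a member's counts, up to 4 genes per list by adjusted p (all in lists of 6 or fewer), and the 5 genes most like TRiC. Exon overlaps come from GENCODE 29 (GRCh38).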

Additional observations from a re-analysis of the deposited data

How the results depend on the processing

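All 10 members were called higher under 14 of the 16 alternatives. The exceptions were the test against 1.2-fold (7 members, 5 of the 8 TRiC subunits, with 1780 genes higher and 1943 lower overall) and the fit without si-STRIP2 replicate 3, which called 9 (all but CCT6A). No member changed sign. Log2 fold changes ranged from 0.74 to 0.79 for HSPD1 and from 0.097 to 0.15 for CCT6A. Without each library in turn, 3866 to 4244 genes were called higher and 3824 to 4250 lower, with 9 to 10 members and 7 to 8 TRiC subunits among the former. With exonic lengths of GENCODE 29, chosen after seeing the data, the coefficient of variation over TRiC rose by 2.97 percentage points between the groups and the ratio of highest to lowest changed by -0.12; with CPM, which ignores length, these were 2.09 and 0.27, against 3.55 and -0.037 with the deposited FPKM, so the direction of the ratio turned. Replicate numbers are shared by the groups, but same-numbered libraries did not deviate together (correlations -0.0858, -0.0133 and -0.0718 across genes), so no pairing was assumed; with the replicate block 10 members and 4196 genes were called higher, 4097 genes lower, and no member's call changed. Under limma 3 tubulin cofactors were called higher in place of 1, and against 1.2-fold no phosducin-like gene in place of 2. The depth of these libraries does not limit the members, whose counts were at least 2179.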
